A study of Mus musculus with 4 samples.

Results

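The genes of the cytosolic ribosomal proteins were examined in the hippocampus of mice exposed to repeated social defeat stress (R-SDS) and of unstressed mice. Members were chosen by name, as rows of the array table that carried exactly 1 gene symbol of the Rpl, Rps, Rplp or Rpsa series, without the ribosomal S6 kinases. The rule found 59 genes among the 19938 genes with such a row, of which 37 are named for proteins of the large subunit and 22 for those of the small subunit. They were represented by 215 of the 21789 rows with a single symbol, and each gene is described by its row with the highest mean over the arrays. In RefSeq, 58 of the 59 are protein-coding and Rps4l is a transcribed pseudogene. A further 17 protein-coding genes that match the rule occur here only on rows that name several genes, among them Rpl3, Rpl11, Rpl32, Rps16 and Rps27.

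All 4 mice were C57BL/6JJmsSlc males aged 11 to 12 weeks, with 1 Affymetrix whole-transcript array each. The 2 R-SDS mice were put together with an aggressive ICR male for 10 min a day over 10 days and stayed next to it behind a board overnight. The 2 Control mice lived in divided cages with a changing partner and were not defeated. In the paper's schedule, the hippocampus was taken days after the last defeat. A social interaction test with an unfamiliar ICR mouse and a sucrose preference test came in between, for Control mice too. The study calls its R-SDS mice on the arrays susceptible, meaning that they avoided an unfamiliar mouse, while the sample labels give only the stress. No transgene or drug was involved, and the labels do not say what samples with the same replicate number share. The labels describe each sample as a mouse without saying that the animals differ, and p-values describe only the spread between these 4 samples.

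The ribosome translates mRNA into protein. Its small subunit reads the codons and its large subunit joins the amino acids. Each is built from ribosomal RNA and a set of proteins, most of which are needed in equal numbers. In mammals the mRNAs of these proteins typically begin with a C followed by an uninterrupted stretch of pyrimidines, the 5′ terminal oligopyrimidine tract, through which the mTORC1 kinase and the RNA-binding protein Larp1 govern their translation. In neurons, ribosomes in cell bodies and dendrites supply the proteins that synaptic plasticity requires. An array measures the amount of mRNA and not its translation.

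Runs of pyrimidines lie at or near the annotated starts of some of these genes. Any such run was counted, whether or not it began with a C or at the start itself. Some, such as that of Rps25, end before the annotated start, so the counts are not counts of terminal tracts. RefSeq promoter sequences (GRCm38.p6) were given for 47 of the 59 genes in 56 windows, since some genes have several start sites. A run of at least 8 pyrimidines (C or T, on the strand of the gene) within 25 bases before to 15 bases after the annotated start was present in 21 of the 56 windows (37.5%), in 20 genes. Among all 32851 RefSeq windows, 16.6% held such a run. The following starts are printed 5′ to 3′ with the longest pyrimidine run in capitals where it reached 8 bases. The first set shows some of the genes whose run spans or touches the annotated start, at base 26 of each line. Others with such a run, among them Rpl14, Rpl38 and Rps18, are not printed. The printed genes are Rpl27a at chr7:109519170-109519209 (plus strand), Rpl28 at chr7:4792940-4792979 (plus), Rplp2 at chr7:141447626-141447665 (plus), Rps6 at chr4:86857353-86857392 (minus), Rpl7a at chr2:26910782-26910821 (plus) and Rps10 at chr17:27635230-27635269 (minus).
Rpl27a: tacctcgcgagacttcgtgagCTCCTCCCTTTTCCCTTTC
Rpl28: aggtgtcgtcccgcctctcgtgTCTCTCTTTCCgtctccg
Rplp2: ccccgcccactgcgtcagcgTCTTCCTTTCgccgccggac
Rps6: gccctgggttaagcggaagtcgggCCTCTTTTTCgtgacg
Rpl7a: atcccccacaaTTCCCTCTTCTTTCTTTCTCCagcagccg
Rps10: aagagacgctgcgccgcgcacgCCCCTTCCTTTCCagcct

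The second set shows the 3 genes at the ends of the order of differences described below, in which no run reached 8 bases in this window. These are Rps15 at chr10:80292406-80292445 (plus), Rps3 at chr7:99483695-99483734 (minus) and the first of 3 annotated starts of Rps19 at chr7:24884567-24884606 (plus).
Rps15: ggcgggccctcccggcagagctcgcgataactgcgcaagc
Rps3: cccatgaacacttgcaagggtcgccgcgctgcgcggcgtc
Rps19: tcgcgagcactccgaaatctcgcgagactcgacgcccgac

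The letters CGGAAG or CTTCCG, the core that ETS-family transcription factors bind, were searched on both strands from 250 bases before to 50 bases after the start. They were present in 35 of the 56 windows (62.5%), in 32 genes, against 16.9% of all windows. A match is a description of letters, and a window without one says nothing about a factor.

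The comparison asked whether mRNA levels in the hippocampus differ between R-SDS and Control mice. No ribosomal protein gene was shown to differ. In limma with Benjamini-Hochberg adjustment over all 21789 rows, 0 of the 59 genes passed an adjusted p of 0.05, and 0 of all rows did (0%). Every one of the 59 adjusted p-values was 1. At an unadjusted p under 0.05 the count was again 0 of 59, against 0.468% of all rows higher and 0.546% lower in R-SDS. With the methods' t-test the count at that threshold was also 0. All 59 confidence intervals (95%, limma) held 0, and none of the 59 differences went beyond 0.5 on the log2 scale. For 49 of the 59 genes (83.1%) the whole interval lay within 0.5 on either side. This held for 61.0% of all rows and for 81.8% of rows with a mean of at least 9. Differences smaller than these intervals cannot be told from the spread of 2 against 2 arrays.

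The differences were small, with a lean upward. The median difference (R-SDS minus Control) was 0.02 on the log2 scale, and 0.01 over all rows. The mean was higher in R-SDS for 41 genes and lower for 18. These 69.5% compare with 52.8% of all rows and 57.3% of rows with a mean of at least 9. After centring each array on its median, 33 of 59 genes and 47.1% of all rows were higher. The differences had an SD of 0.08 among the genes, compared with 0.15 among all rows and 0.08 among rows with a mean of at least 9. Of the 59, 42 (71.2%) lay within 0.1 of 0, against 62.4% of all rows and 82.0% of those bright rows. Beyond 0.1, 15 genes were higher and 2 were lower (25.4% and 3.4%, against 20.4% and 17.2% of all rows). The 2 R-SDS values were both above the 2 Control values for 6 genes, Rps3, Rps12, Rps15, Rps15a, Rpl28 and Rpl39l, where 9.41% of all rows had this pattern. Only Rpl41 had both R-SDS values below both Control values, a pattern of 9.06% of all rows.

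The size and sign of the lean changed with the array left out. Each such omission also leaves the replicate numbers unequal between the groups. The median over the 59 genes was 0.07 above the control mean on R-SDS 1 and 0.02 below it on R-SDS 2. Of the 59, 46 were above the control mean on R-SDS 1 and 27 on R-SDS 2. Without R-SDS 1 the median difference was -0.02 and 27 genes were higher, and without Control 2 it was -0.0004 with 29 higher. Without R-SDS 2 and without Control 1 the medians were 0.07 and 0.07, with 46 and 47 higher. Between same-numbered arrays, the medians were 0.03 for number 1 (R-SDS 1 less Control 1) and 0.03 for number 2. These within-number differences were positive in both numbers for 24 genes (40.7%, against 27.3% of all rows). They were negative in both for 5 (8.5%, against 22.7%) and of opposite sign for 30. Among rows with a mean of at least 9, 30.4% were positive in both and 18.1% negative in both.

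**Figure D1:**
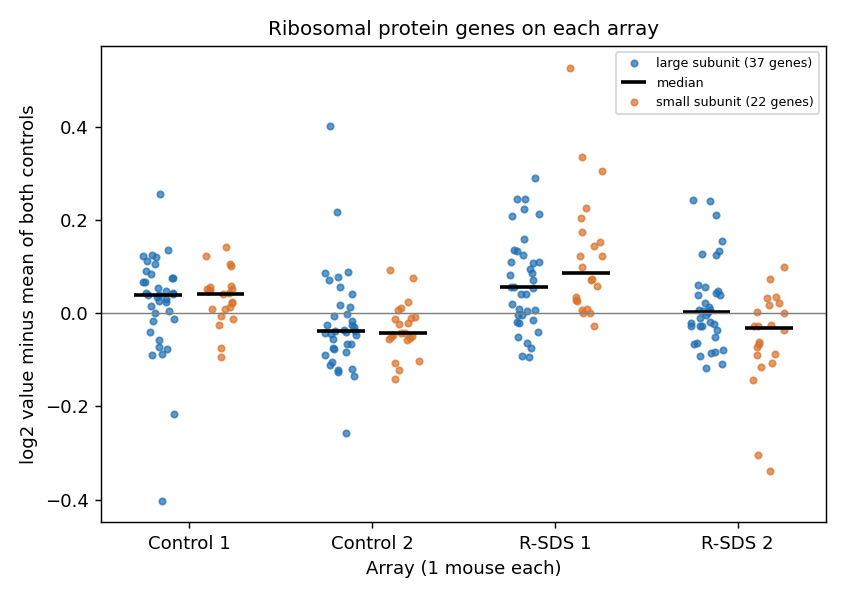
Each point is 1 ribosomal protein gene on 1 array, as its log2 value minus the mean of both Control arrays (y axis), with arrays on the x axis and subunits in colour. Black bars are medians. For all 59 genes together the medians were 0.04 on Control 1, -0.04 on Control 2, 0.07 on R-SDS 1 and -0.02 on R-SDS 2, so arrays with the number 1 stood above those with the number 2 in both groups.

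These genes differed more between replicate numbers than between the groups. The mean of the arrays numbered 1 exceeded the mean of those numbered 2 for 45 of 59 genes (76.3%), by a median of 0.08 on the log2 scale. The gap between numbers was larger than the gap between groups for 46 genes (78.0%). This held for 72.3% of all rows and 81.3% of rows with a mean of at least 9. This tilt was shared with other bright rows. Among the 2571 rows with a mean of at least 9 71.8% were higher in number 1, by a median of 0.09, while the median gap over all rows was 0.0003. R-SDS 1 gave the highest of the 4 values for 26 of the 59 genes (44.1%) and Control 2 the lowest for 31 (52.5%). The shares among the rows with a mean of at least 9 were 42.4% and 46.2%. Other shares were less alike. R-SDS 1 was lowest for 2 genes (3.4%) against 23.4% of these rows, and Control 1 for 12 (20.3%) against 6.8%. The value distribution was also wider on the arrays numbered 1, with an interquartile range over the 35556 rows of the table of 3.34 and 3.37 against 3.06 and 3.11. After a further quantile normalization the median gap between numbers was 0.05 (40 of 59 genes), and after cyclic loess 0.04 (37 of 59).

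Markers of another tissue also moved with the array R-SDS 1. All 10 measured markers of the choroid plexus, the epithelium that makes cerebrospinal fluid, had a higher mean in R-SDS, with a median difference of 2.38 within number 1 and 0.0007 within number 2. Their summed value on the linear scale was 3306 and 609 in Control 1 and 2, and 13795 and 897 in R-SDS 1 and 2. The only measured marker of red cells, Alas2, was at 5.66 and 5.94 in Control and at 7.41 and 5.80 in R-SDS. Of 12 hippocampal neuron markers, all 12 were above the array median on every array, among them Prox1 of granule cells, and 11 had a higher mean in R-SDS with a median of 0.08. Markers of other cell types had a higher mean for 8 of 8 in astrocytes (median 0.13), 6 of 7 in endothelium (0.16), 5 of 7 in microglia (0.05) and 5 of 6 in ependyma (0.13), but for only 2 of 7 in oligodendrocytes (-0.07). Of 10 hepatocyte markers, 9 had a lower mean (median -0.39), 7 of them in both numbers. Of these 10, 0 were above the array median on every array. On R-SDS 1 the astrocyte median was 0.22 above the control mean. The part of these markers in the ribosomal protein values was not tested. In whole tissue, fewer cells of a type and less RNA per cell cannot be told apart.

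**Figure D2:**
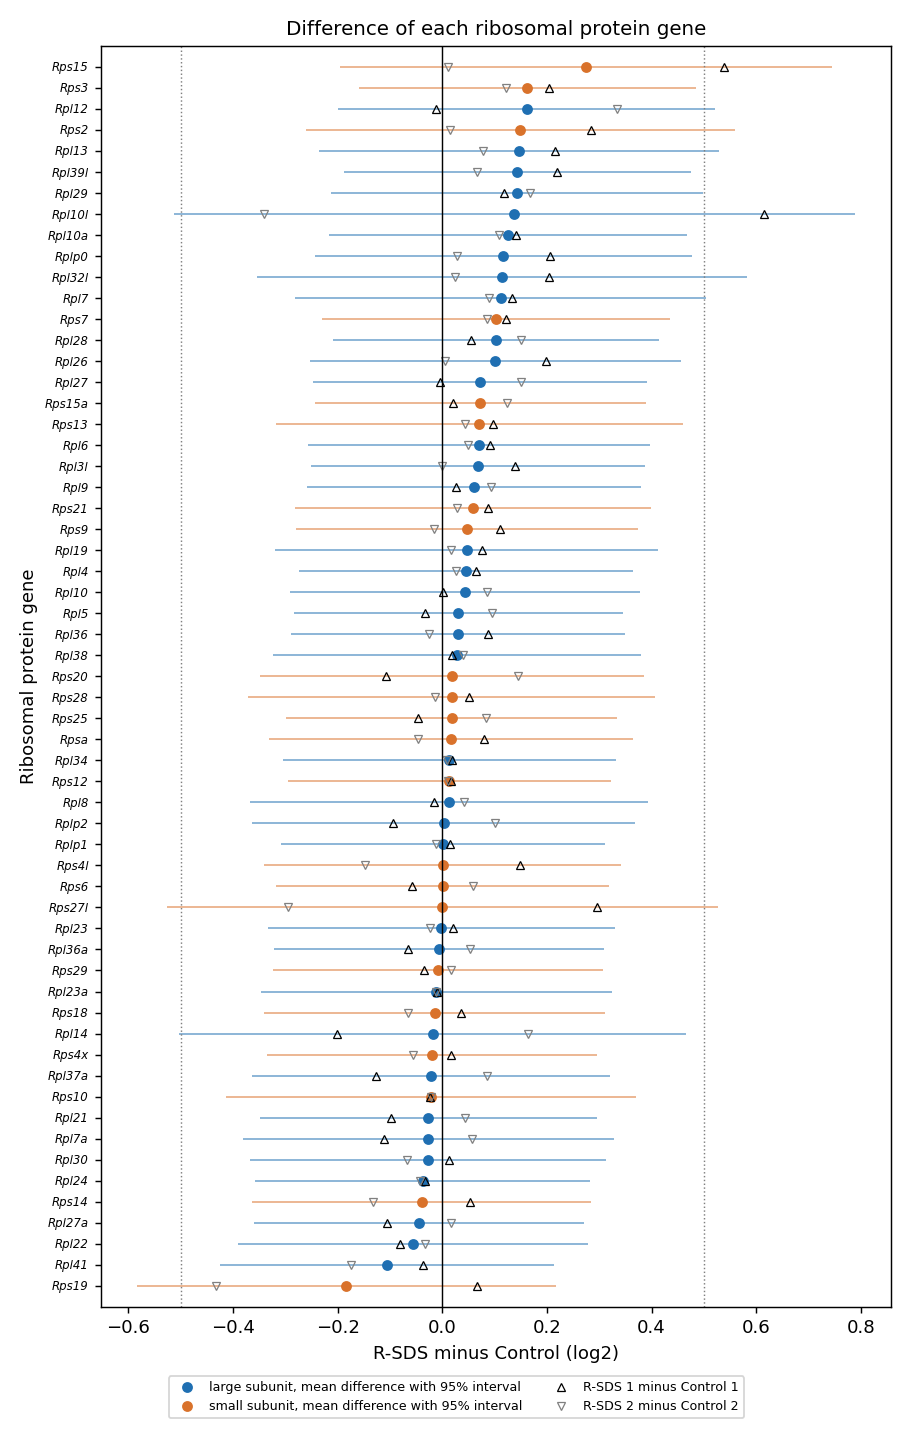
Log2 difference R-SDS minus Control (x axis) for each of the 59 genes (y axis), ordered by size, with limma's 95% confidence interval as a bar, the within-number differences as open triangles and the bound of 0.5 as dotted lines. Every interval holds 0. The ends of the order are Rps15 (0.27) and Rps19 (-0.18), and in both the 2 within-number differences lie far apart.

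Proteins of the small subunit came first and last in the order. Rps15, a protein of the subunit head near the decoding site, had log2 values of 11.51 and 11.53 in Control and of 12.05 and 11.54 in R-SDS. Only R-SDS 1 stood apart, while R-SDS 2 exceeded the higher Control value by 0.01. The difference was 0.27 (SE 0.19, limma unadjusted p = 0.203, adjusted p = 1), the smallest unadjusted p of the 59 genes. It was 0.02 without R-SDS 1, and without R-SDS 2 it was 0.53 with an unadjusted p of 0.0277.

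Rps3 lines the channel through which mRNA enters the ribosome. Its values were 9.31 and 9.26 in Control and 9.51 and 9.38 in R-SDS. Both R-SDS mice were above both Control mice, by 0.16 in the mean (SE 0.13, limma adjusted p = 1), and leaving out any 1 array kept the difference between 0.10 and 0.23. Rps2, its neighbour at the entry channel, had 10.58 and 10.48 in Control and 10.86 and 10.49 in R-SDS. Here the higher mean (0.15) came from R-SDS 1, and without that array the difference was -0.04.

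Rps19, mutated in the inherited anaemia of Diamond and Blackfan, had the lowest difference. Its values were 7.67 and 7.86 in Control and 7.74 and 7.42 in R-SDS, and the groups overlapped. The mean was lower by 0.18 on the log2 scale (difference -0.18, SE 0.16, limma adjusted p = 1), with 0.07 within number 1 and -0.43 within number 2. It was -0.03 without R-SDS 2 and -0.34 without R-SDS 1. Rps14, which is lost in a form of myelodysplastic syndrome, differed by -0.04, with 9.87 and 9.92 in Control and 9.92 and 9.79 in R-SDS. Rps6, the substrate of the S6 kinases that mTORC1 activates, was at 11.61 and 11.49 in Control and at 11.55 and 11.55 in R-SDS, a difference of 0.0004 with an interval of -0.32 to 0.32. Over the 22 small-subunit genes the median difference was 0.02, and 16 were higher.

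Among the large-subunit proteins the median was 0.03, and 25 of 37 were higher. Rpl12, at the base of the stalk to which elongation factors bind, had the largest difference of this subunit. It was at 6.08 and 5.84 in Control and at 6.07 and 6.17 in R-SDS, with Control 2 below the other arrays. All 4 values lay below the array medians of rows with a single symbol, and the gene had only 1 row. The difference was 0.16 (SE 0.15), and it was 0.04 without Control 2 and 0.28 without Control 1. Rpl13 had 9.89 and 9.74 in Control and 10.10 and 9.82 in R-SDS, with R-SDS 1 highest and a difference of 0.15 (SE 0.16) that was 0.0028 without R-SDS 1 and 0.29 without R-SDS 2. Rpl29 was at 9.51 and 9.66 in Control and at 9.63 and 9.83 in R-SDS. Its difference of 0.14 was positive in both numbers (0.12 and 0.17), although the groups overlapped, and it was 0.04 without R-SDS 2 and 0.24 without R-SDS 1.

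At the low end of this subunit stood Rpl41, a very short and basic peptide. It had 10.48 and 10.59 in Control and 10.44 and 10.42 in R-SDS, both below the Control mice, with a difference of -0.11 (SE 0.13, limma adjusted p = 1). Rpl22, an RNA-binding protein that can be replaced by a paralog, followed at -0.06, with 7.91 and 7.75 in Control and 7.82 and 7.72 in R-SDS. Rpl27a (-0.04), Rpl24 (-0.04), Rpl30 (-0.03) and Rpl7a (-0.03) completed the lowest 8 with Rps14, and in all of them the groups overlapped.

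The proteins of the stalk and Rpsa, which recruit translation factors and form part of the small subunit, gave a range of sizes. Rplp0, the base of the stalk, was at 10.46 and 10.38 in Control and at 10.67 and 10.41 in R-SDS, a difference of 0.12 that was -0.01 without R-SDS 1. Rplp1 and Rplp2, its acidic partners, differed by 0.0013 and 0.0032. For Rplp1 the 4 arrays spanned only 0.03, from 12.08 to 12.12. For Rplp2 they spanned 0.27, and the within-number differences were -0.09 and 0.10. Rpsa, also known as a laminin receptor, had a difference of 0.02 with -0.05 within number 2.

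Rpl5 and Rpl23 are among the ribosomal proteins that bind the Mdm2 ubiquitin ligase when ribosome assembly fails. Rpl5 was at 10.52 and 10.44 in Control and at 10.49 and 10.54 in R-SDS, a difference of 0.03 (SE 0.13). Rpl23 had a difference of -0.0018 (SE 0.14), with 10.35 and 10.50 in Control and 10.37 and 10.47 in R-SDS. Rpl10, which completes the peptidyl transferase centre during assembly, had a difference of 0.04, with its highest value (11.82) on R-SDS 2.

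Of 6 listed paralogs of core ribosomal protein genes, the 5 with a row had differences from 0.0003 to 0.14. Rpl32l, not on that list, differed by 0.11. Rpl3l of striated muscle and Rpl10l and Rpl39l of the testis lay below the lower quartile of all rows on all 4 arrays, where values are most affected by background. Rpl10l had the widest spread of all 59 genes, with 4.07 and 4.87 in Control and 4.68 and 4.53 in R-SDS. The 2 Control mice lay 0.80 apart, and the difference of 0.14 became -0.26 without Control 1 and 0.54 without Control 2, the latter with an unadjusted p of 0.0312. Rpl39l was at 3.78 and 3.95 in Control and at 3.997 and 4.02 in R-SDS, a difference of 0.14. Rpl3l had a difference of 0.07. Rps27l, which the p53 tumour suppressor induces, was at 6.84 and 6.82 in Control but at 7.14 and 6.53 in R-SDS. Its group means were almost equal (difference 0.0003, interval -0.53 to 0.53), with the R-SDS mice 0.30 above and 0.30 below their same-numbered Control mice. Rps4l differed by 0.0005, with 0.15 within number 1 and -0.15 within number 2. Without the 3 dim genes, 38 of 56 were higher and the median was 0.02.

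The tightest gene was Rps12, a small-subunit protein. Its values were 11.05, 11.06, 11.07 and 11.08, a range of 0.02, so that the groups did not overlap although the difference was only 0.01. Over the 59 genes the median range across the 4 arrays was 0.18, against 0.30 for all rows and 0.21 for rows with a mean of at least 9. Mammalian genomes carry many processed copies of ribosomal protein genes, and a row of such a gene may collect signal from near-identical sequences, which was not tested. The differences of these rows are therefore uncertain as to which copy they measure.

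Rows of the same gene were also compared. They come from the same arrays and may measure near-identical sequences, so they are not independent of each other. Of the 59 genes, 39 had more than 1 row, up to 14 for Rps12, and 19 rows of 5 genes (Rps12, Rpl23a, Rpl41, Rpl27 and Rps28) repeated another row exactly on all arrays. The rows of a gene gave differences that spanned a median of 0.05 on the log2 scale. All 3 rows of Rps15 were higher in the mean (0.14 to 0.27), and on all 3 the value of R-SDS 1 was the highest, while the difference within number 2 ran from -0.06 to 0.01. All 9 rows of Rpl13 were higher, by 0.06 to 0.19. In 12 genes the rows differed in sign. The widest was Rps13, whose 3 rows gave -0.04, 0.07 and 0.10, followed by Rps25 with 6 rows from -0.0091 to 0.13. Rpl7a had 3 rows (-0.03, 0.07 and 0.10), and Rpl27a had 9 from -0.04 to 0.07. Over all 215 rows of these genes, 156 (72.6%) were higher, with a median of 0.03.

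**Figure D3:**
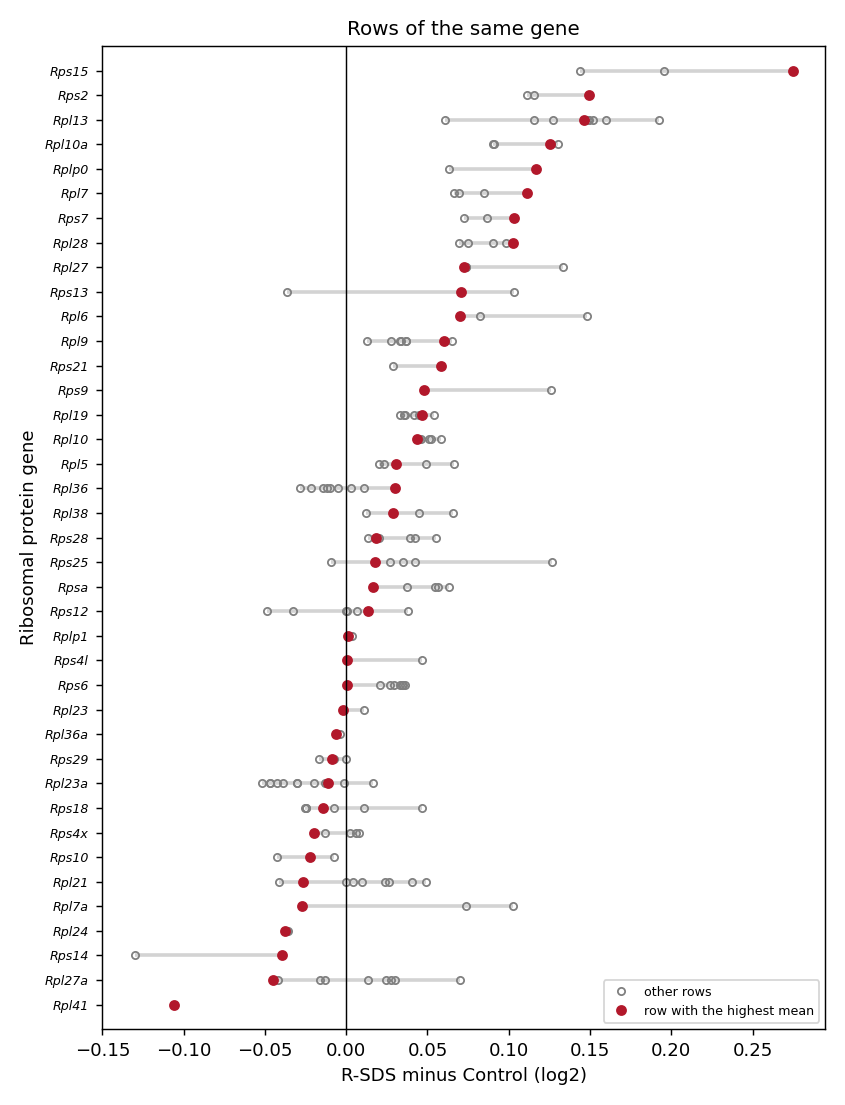
Log2 differences R-SDS minus Control (x axis) of each row of the 39 genes with several rows (y axis). Filled points are the row with the highest mean, which represents the gene, and open points its other rows. All rows of Rps15, Rpl13 and Rps2 lie to the right of 0, while those of Rps13, Rps25, Rpl7a and Rpl27a lie on both sides.

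Rows that name several genes, exactly 1 of them a ribosomal protein gene, were counted but not named. Of 234 such rows, 185 (79.1%, against 52.8% of all single-symbol rows) had a higher mean in R-SDS, with a median difference of 0.03, and 0 passed the threshold before or after adjustment. Both R-SDS values exceeded both Control values in 60 of the 234, where 9.41% of all single-symbol rows had this pattern, and lay below in 3, against 9.06%. These rows may measure near-identical sequences, which was not tested, and their number is not a number of genes.

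Several ribosomal protein genes carry small nucleolar RNAs (snoRNAs), which guide modification of ribosomal RNA, inside their introns, and these are cut from the same primary transcript. In RefSeq, 14 of the 59 genes enclosed snoRNA genes, and 11 snoRNAs in 9 of these genes had a row. The median difference was -0.02, with 5 higher and 6 lower and 0 past the threshold in limma before or after adjustment. The 2 snoRNAs within Rps3, whose own difference was 0.16, gave -0.04 (Snord15a) and 0.07 (Snord15b). The extremes were Snord16a in Rpl4, at 9.59 and 9.76 in Control and 9.88 and 9.75 in R-SDS (0.14), and Snord42b in Rpl23a, at 7.67 and 7.77 in Control and 7.502 and 7.64 in R-SDS (-0.15). The median within number 1 was -0.16 and within number 2 it was 0.11.

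Genes with and without these features around their annotated start overlapped in their differences. The 20 genes with a pyrimidine run had a median difference of 0.02 (15 higher), and the 27 without one 0.06 (19 higher). With the ETS core the median was 0.02 over 32 genes (23 higher), and without it 0.07 over 15 genes (11 higher). Rpl27a and Rpl7a, with runs of 19 and 21 bases, were among the 8 lowest at -0.04 and -0.03, although other rows of both were higher in R-SDS. Rpl34, with a run of 20 bases, had a difference of 0.01. Rpl28, with a run at its start, had 11.39 and 11.36 in Control and 11.45 and 11.51 in R-SDS (0.10). No test was made of these differences.

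The other genes of translation also gave no call. Of 77 mitochondrial ribosomal protein genes, whose products build the separate ribosome of that organelle, 46 were higher and 31 lower with a median of 0.02, and 0 passed the adjusted p. The largest differences were those of Mrps10 (-0.22) and Mrps25 (-0.17). Of 16 other mRNAs with a terminal oligopyrimidine tract, 11 were higher, with a median of 0.01. Npm1, a nucleolar chaperone of ribosome assembly, was at 8.78 and 8.66 in Control and at 8.39 and 8.52 in R-SDS (-0.26, SE 0.14), below both Control mice on both arrays. Nap1l1, a histone chaperone, had -0.21, of which -0.53 was within number 1 and 0.12 within number 2.

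Of 30 initiation and termination factors, 13 were higher and 17 lower (median -0.0026). The largest differences were in Eif2b3 (-0.22), part of the exchange factor that recharges the initiator complex, and Eif5a (0.13). Of 47 genes of RNA polymerase I and ribosome assembly, 29 were higher (median 0.0087). Rrs1, an assembly factor of the large subunit, had 6.62 and 6.49 in Control and 6.11 and 6.38 in R-SDS (-0.31, SE 0.15), and Taf1d had -0.22. Of 26 genes of the mTORC1 pathway, 14 were higher (median 0.01). Sesn2, a leucine sensor that restrains mTORC1, had 7.18 and 6.55 in Control and 7.35 and 6.87 in R-SDS (0.24), and Mlst8, a subunit of the complex, had 0.21. In each of these lists 0 genes passed the adjusted p or an unadjusted p under 0.05 in limma. The 2 ribosomal protein pseudogenes with a row, Rps19-ps3 and Rpl14-ps1, gave -0.12 and 0.07.

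**Figure D4:**
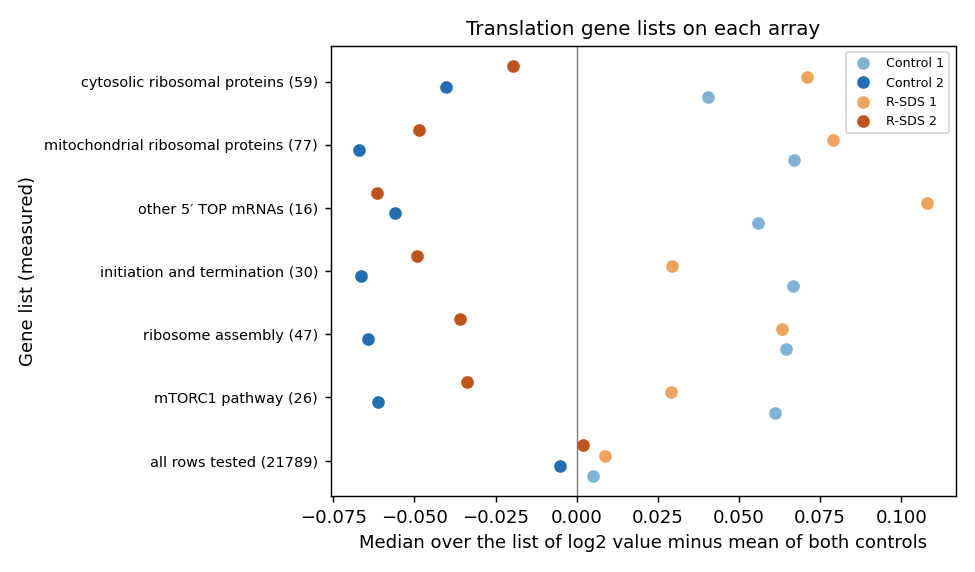
Median over each gene list of the log2 value minus the mean of both Control arrays (x axis), by list (y axis, with the number of genes or rows) and array (colour). The cytosolic ribosomal protein genes lay at 0.04 and -0.04 on the Control arrays and at 0.07 and -0.02 on the R-SDS arrays, and in all 6 lists both arrays numbered 1 were above both arrays numbered 2. Over all rows the order was the same, with medians within 0.01 of 0.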

How the data were processed

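Hippocampal total RNA of 2 Control and 2 R-SDS mice was hybridised to Affymetrix whole-transcript arrays. The sources name different labelling kits. The authors deposited log2 values, for which the submitters' processing notes name RMA and Affymetrix Expression Console. RMA subtracts background, normalizes the arrays and summarises probes. The columns did not have identical distributions, which affects differences this small. No source used here says how arrays were grouped for RMA. The values have no detection call, and precision is limited by the number of arrays.

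Groups came from the sample titles. Rows were named from the platform annotation. Of 35556 rows, 21789 had 1 symbol, 1621 several and 12146 none, and 99.6% of the Entrez identifiers matched RefSeq (GRCm38.p6). These rows were compared with limma 3.58.1 in R 4.3.3 (lmFit, eBayes, no filter, two-sided, 2 residual and 4.07 prior degrees of freedom, Benjamini-Hochberg, threshold 0.05), and the procedure was tested on simulated data. Student's unpaired test is called the methods' t-test. Plots used matplotlib 3.10.9.

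The members and lists were chosen with earlier results of these data known. Named members are the 8 highest and 8 lowest differences, the stalk, paralog and regulator lists, and the 6 with the largest disagreement between rows, and of each other list the 2 genes with the largest difference. Rps12, Rps15a, Rpl28, Rpl32l, Rpl34, other members named only in a count or a list, and the snoRNAs were named after their values were seen. The alternatives were the replicate block, the methods' t-test, 2 normalizations, centring, a filter at a mean of 7, a trended prior, all rows, the mean of a gene's rows, rows with several symbols, and leaving out each array. Sequences and snoRNA positions are RefSeq's (GRCm38.p6). Some genes that match the rule are not reported here.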

Additional observations from a re-analysis of the deposited data

How the results depend on the processing

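In all 14 alternatives 0 ribosomal protein genes passed the adjusted p. With a block for the replicate number, the fit called 0 of the genes before or after adjustment (smallest unadjusted p = 0.132), the median stayed at 0.02 with 41 higher, and 1047 of all rows had an unadjusted p under 0.05 against 221 without it. With only 2 pairs the numbers are not shown to pair the arrays. The deviations of same-numbered arrays from their group means correlated at 0.517 across rows and at 0.217 across the 59 genes, which are not independent replicates. The median difference was 0.02 after quantile normalization, 0.0083 after cyclic loess, 0.004 after centring and 0.04 with the mean of each gene's rows. Leaving out 1 array gave medians from -0.02 to 0.07, counts of higher genes from 27 (without R-SDS 1) to 47 and counts with an unadjusted p under 0.05 from 0 to 1. Adding the rows with several symbols gave 226 higher of 293. Of the 29 named genes, 8 changed sign in settings that kept all arrays, all with main differences under 0.05 in size. After quantile normalization these were Rpl23 (0.0116), Rplp1 (-0.0131), Rps27l (-0.0143) and Rps4l (-0.013). After cyclic loess they were Rplp1 (-0.0022), Rplp2 (-0.0011), Rps27l (-0.0042), Rps4l (-0.0082) and Rps6 (-0.005). After centring they were Rplp1 (-0.0133), Rplp2 (-0.0114), Rps27l (-0.0143), Rps4l (-0.0141) and Rps6 (-0.0142). With the mean of a gene's rows they were Rpl23 (0.0046), Rpl27a (0.0054) and Rpl7a (0.0498). Leaving out 1 array changed the sign of 19. The ranges were -0.0394 to 0.13 for Rpl10, -0.26 to 0.54 for Rpl10l, -0.13 to 0.0199 for Rpl22, -0.0736 to 0.07 for Rpl23, -0.0832 to 0.0077 for Rpl24, -0.12 to 0.0618 for Rpl30, -0.0074 to 0.069 for Rpl5, -0.15 to 0.0931 for Rpl7a, -0.0111 to 0.24 for Rplp0, -0.0161 to 0.0188 for Rplp1 and -0.13 to 0.14 for Rplp2. They were -0.0617 to 0.20 for Rps13, -0.11 to 0.028 for Rps14, -0.0364 to 0.33 for Rps2, -0.03 to 0.0655 for Rps25, -0.30 to 0.30 for Rps27l, -0.0751 to 0.0762 for Rps4l, -0.0578 to 0.0585 for Rps6 and -0.09 to 0.12 for Rpsa. Without a change of sign, the ranges were 0.0126 to 0.12 for Rpl3l, 0.0564 to 0.23 for Rpl39l, -0.16 to -0.049 for Rpl41 and -0.0882 to -0.0014 for Rpl27a. Over all rows, 2 were called at the adjusted p without R-SDS 1 and 49 without R-SDS 2, and 0 in the other settings. The cause of these shifts was not tested. Arrays carry no depth, and a group of 1 array was assumed to vary like the other.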
